A study of Mus musculus with 11 samples.

Results

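The genes described here are 10 components of tumour necrosis factor receptor signalling and of the transcription factor NF-kB that it activates. They are the receptor-associated adaptors Traf1, Traf2, Traf3, Traf4, Traf5 and Traf6, the NF-kB genes Nfkb1, Nfkb2 and Relb, and the inhibitor gene Nfkbia. They were taken by name, 10 of 22196 genes obtained, and all 10 passed the filter on low counts that left 12716 genes. The list was chosen by the measured difference between knockout and wild-type in these same libraries, with Traf1 as its leading gene, so that the differences between genotypes in these genes are given as a description, with counts of genes past a threshold beside the share of all genes and with no p-value of their own.

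The RNA came from the inguinal mammary glands of 11 mice on normal chow, taken 16 days after delivery. The 6 knockout mice carried Tsc1-fl/fl with 1 copy of the Adipoq-Cre transgene, which the adiponectin gene's promoter confines to fat cells. The 5 wild-type mice carried Tsc1-fl/fl without Cre, so that both groups had the floxed allele. Tsc1 restrains the growth kinase complex mTORC1, and the deletion concerns adipocytes, while the whole gland was sequenced. Nothing in the labels says from how many litters the mice came, and p-values measure the spread between these samples. Libraries held between 25817975 and 37894237 estimated reads. Tsc1 itself, whose transcripts from all other cells of the gland remain, was at 10.1 CPM ± 1.33 (SD, n = 6) in the knockout group, against 10.7 CPM ± 1.11 (SD, n = 5) in the wild-type group. CPM are read counts scaled to a common library size. The milk protein gene Csn2 and the adipocyte gene Adipoq were found in all libraries, at no less than 116746 and 29.5 CPM.

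TRAF proteins bind the inner part of receptors of the tumour necrosis factor family and pass the signal on to kinases. In the canonical branch the kinase complex destroys the inhibitor encoded by Nfkbia, which frees NF-kB dimers such as the one with the processed Nfkb1 product. In the non-canonical branch, which Traf2 and Traf3 hold back, the Nfkb2 product is processed and enters the nucleus with the Relb product. Several of the genes are themselves NF-kB targets, among them Traf1, Nfkbia, Nfkb2 and Relb, and in the mammary gland the receptor RANK drives NF-kB during the growth of the milk-producing epithelium.

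The start regions of these genes were searched for NF-kB motifs in the RefSeq promoter table (GRCm38.p6), whose windows run from 250 bases before to 50 bases after each annotated start. Of the 10 genes 8 matched by symbol, with 10 windows, and Nfkb1 and Relb did not. The NF-kB consensus, on either strand, was in 5 of the 10 windows, which belong to 3 genes, and in 4.51% of all 32851 windows. An overlapping pattern of 3 G, any 2 bases, 3 T and 2 C was in 6 of the 10 windows, which belong to 4 genes, and in 1.63% of all windows. Examples from genes of both branches are shown to let a reader compare them, on the gene's strand, with up to 10 bases on either side and the match in capitals. In Nfkbia the match lies on the opposite strand.
Nfkbia, chr12:55492657-55492686, minus strand: tgactggcttGGAAATTCCCcgcgcctgac
Nfkb2, chr19:46304716-46304745, plus strand: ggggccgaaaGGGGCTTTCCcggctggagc
Nfkb2, chr19:46305695-46305724, plus strand: tggtattttcGGGACTTTCCtaagcagcac
Traf3, chr12:111166350-111166379, plus strand: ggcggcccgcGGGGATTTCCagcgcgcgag
Traf2 matched the second pattern alone, in a stretch after its start, and Traf4, Traf5 and Traf6 held no match to either.
Traf2, chr2:25546891-25546919, minus strand: gcggcagcggGGGTGTTTCCcggcgagcg
The window of Traf1, the gene with the largest difference between genotypes among the 10, held no match to either. Its 250 bases before the start are at chr2:34961773-34962022 on the minus strand, with a GC content of 48.0%.
Traf1, upstream bases: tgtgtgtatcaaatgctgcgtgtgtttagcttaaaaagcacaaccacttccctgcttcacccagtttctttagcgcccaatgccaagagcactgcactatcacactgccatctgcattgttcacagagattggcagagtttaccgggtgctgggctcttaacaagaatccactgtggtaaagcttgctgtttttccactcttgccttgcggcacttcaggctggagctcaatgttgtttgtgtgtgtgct
A match is a stretch of letters and not a shown binding site, and a missing match concerns these windows alone.

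Per length, the inhibitor gene Nfkbia was the most abundant of the 10, with 35.0 TPM ± 8.10 (SD, n = 11), where TPM is the abundance after division by transcript length. Traf1 came next with 11.8 TPM ± 4.36, followed by Traf4 with 8.63 ± 2.15 and Traf2 with 5.05 ± 1.21. Nfkb1 was at 3.93 TPM ± 0.968, Nfkb2 at 2.99 ± 1.16 and Relb at 2.47 ± 1.11. At the low end were Traf6 with 1.27 TPM ± 0.392, Traf3 with 1.22 ± 0.831 and Traf5 with 0.872 ± 0.565. Their order was not the same in each genotype, as in wild-type libraries the means were 0.967 TPM for Traf6, 1.03 for Traf5 and 1.08 for Traf3, and in knockout libraries 1.52, 0.744 and 1.33. Neighbours in this order overlapped in their ranges over the libraries, apart from Nfkbia, whose lowest value of 26.7 TPM lay above the highest of Traf1, 19.1 TPM. Within the wild-type libraries Traf1 averaged 15.8 TPM ± 2.88 (SD, n = 5) against 7.35 ± 1.90 for Traf4, and within the knockout libraries Traf1 ran from 6.03 to 9.98 TPM, with Traf4 at 9.69 ± 1.83 (SD, n = 6). In CPM Traf1 was lower than Traf4, with wild-type means of 16.3 and 26.9 and knockout means of 8.24 and 30.1. Their main transcripts have 1230 and 1413 bases. A gene's TPM is the sum over its transcripts, and 1 of the 2 of Traf1 has a listed length of 216 bases. Few reads on so short a transcript add much TPM, so that the place of Traf1 in this order depends on how its reads were assigned.

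Traf1 (ENSMUSG00000026875, chromosome 2, 34941750 to 34961772, GRCm38) encodes the TRAF that lacks the ubiquitin ligase domain of the others and acts together with Traf2. It was at 12.3, 18.8, 20.9, 12.8 and 16.6 CPM in Wild-Type 1 to 5. In the knockout libraries it ranged from 6.17 to 9.65 CPM with a median of 9.02. The ranges of the genotypes did not meet. The wild-type mean was 16.3 CPM ± 3.73 (SD, n = 5) and the knockout mean 8.24 CPM ± 1.54 (SD, n = 6), which as a log2 fold change is -0.98 ± 0.17 (SE, edgeR), on 181 to 664 reads per library. Fewer cells that express the gene and less RNA in each of them cannot be told apart in whole glands, here or for any other gene.

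**Figure D1:**
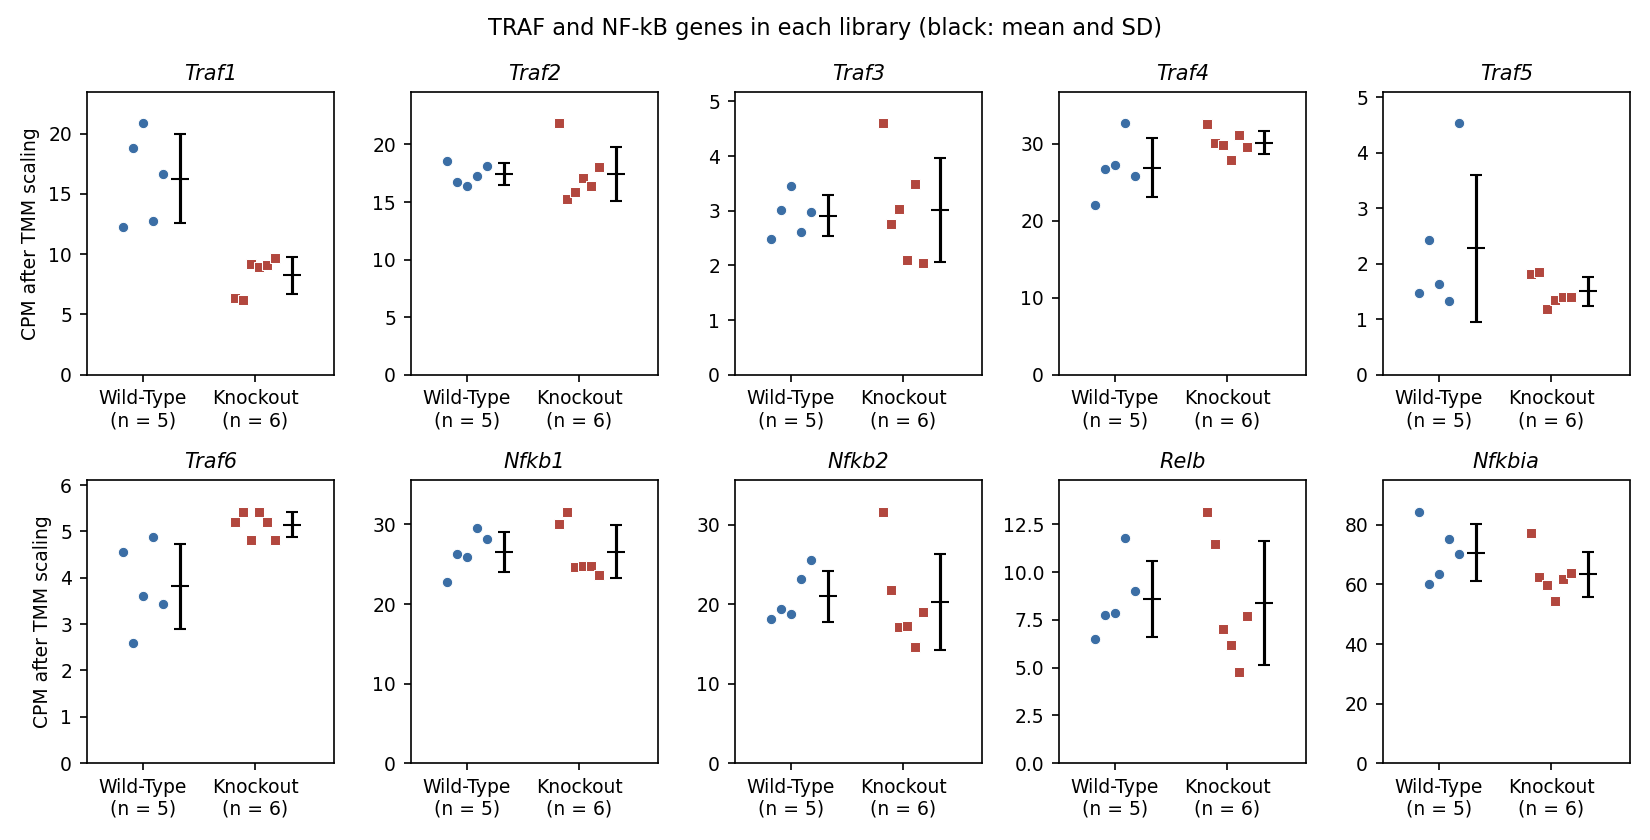
CPM of the 10 genes (y axes from 0) in 5 wild-type libraries (blue circles) and 6 knockout libraries (red squares), with the mean and SD in black. For Traf1 the knockout libraries end at 9.65 CPM and the wild-type libraries start at 12.3 CPM, and for the 9 other genes the groups overlap.

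Of the 10 genes, edgeR's quasi-likelihood test with Benjamini-Hochberg adjustment over all genes called 0, against 7 of 12716 genes tested, or 0.055% (0.00786% lower and 0.0472% higher in knockout). At an unadjusted p-value under 0.05 edgeR had 2 of the 10, Traf1 and Traf6, against 12.4% of all genes (6.08% lower, 6.31% higher). DESeq2 called 1 of the 10, Traf1, against 1.15% of all genes (0.472% lower), and had 2 at an unadjusted p-value under 0.05, against 13.0%. Traf1 was the 1 of the 10 whose groups did not overlap, which was so for 1.32% of all genes, and with the knockout lower for 0.535%. In size its fold change was matched or exceeded by 2.91% of the genes tested. These shares are a description, since the comparison that chose the list is the one they come from.

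Both annotated Traf1 transcripts were lower in the knockout libraries. The 1230-base coding sequence ENSMUST00000172159.7 held 94.3% of the gene's reads and ranged from 11.5 to 19.8 CPM in wild-type and from 5.72 to 9.18 CPM in knockout libraries. The 216-base ENSMUST00000201690.1 had the remaining 5.75%, at 0.785 to 1.14 CPM in wild-type and 0.183 to 0.565 CPM in knockout libraries. The groups were thus apart for each of the transcripts. No annotated gene overlaps Traf1 on either strand.

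The same Traf1 reads can be set against those of its partner Traf2 within each library, which describes the difference on another scale and adds no evidence for it. Traf1 had 0.661, 1.13, 1.27, 0.743 and 0.917 reads for each read of Traf2 in Wild-Type 1 to 5. In knockout libraries the ratio averaged 0.481 ± 0.111 (SD, n = 6) and ran from 0.292 to 0.578. Of all reads on the 6 Traf genes, Traf1 took 23.3% ± 4.46 (SD, n = 5) in wild-type and 12.6% ± 2.55 (SD, n = 6) in knockout libraries, and the groups did not overlap.

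Traf2 itself, an adaptor that joins the inhibitor-of-apoptosis proteins to the receptors, had the same mean of 17.4 CPM in both groups. It was at 18.6, 16.7, 16.4, 17.2 and 18.1 CPM in Wild-Type 1 to 5, and from 15.3 to 21.8 CPM with a median of 16.7 in knockout libraries, where Knockout 1 was the highest. Its log2 fold change was 0.00 ± 0.09 (SE). Traf3, which with Traf2 keeps the kinase of the non-canonical branch low, was at 2.91 CPM ± 0.381 (SD, n = 5) in the wild-type group, against 3.01 CPM ± 0.954 (SD, n = 6) in the knockout group, which as a log2 fold change is 0.05 ± 0.20 (SE). The sources used here do not state whether strand was used in counting, and genes on the opposite strand overlap Traf2 (Gm13433), Traf3 (4930595D18Rik), Traf5 (Gm26879) and Nfkb2 (Psd and AC114539.1), so that reads of these pairs may not be told apart.

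Traf4, found in epithelia, was at 22.03, 26.6, 27.2, 32.6 and 25.8 CPM in Wild-Type 1 to 5 and from 27.9 to 32.5 CPM in knockout libraries, with a median of 29.9. Wild-Type 4 lay just above the highest knockout library and the other wild-type libraries lay under all of them. The log2 fold change was 0.17 ± 0.09 (SE), with 0.10 without Wild-Type 1 and 0.25 without Wild-Type 4. Traf6, the adaptor of the Toll-like and interleukin-1 receptors and of RANK, was at 4.55, 2.59, 3.61, 4.89 and 3.44 CPM in Wild-Type 1 to 5. All knockout libraries were between 4.81 and 5.42 CPM, with a median of 5.20, and Wild-Type 4 alone of the wild-type libraries fell within their range. Its log2 fold change was 0.43 ± 0.15 (SE), on 62 to 234 reads per library.

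Traf5, a further adaptor of lymphocyte receptors, was the rarest of the 10, with 36 to 129 reads per library. It was at 1.47, 2.42, 1.63, 1.34 and 4.53 CPM in Wild-Type 1 to 5 and at 1.19 to 1.84 CPM in knockout libraries. Wild-Type 5 stood above all the others. The log2 fold change of -0.60 ± 0.30 (SE) became -0.19 without Wild-Type 5 and 0.03 with the B cell score described below as a covariate.

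The NF-kB genes had nearly equal group means. Nfkb1, which encodes the p105 precursor of the p50 subunit, averaged 26.5 CPM ± 2.56 (SD, n = 5) in the wild-type group, against 26.6 CPM ± 3.32 (SD, n = 6) in the knockout group, which as a log2 fold change is 0.00 ± 0.10 (SE). Nfkb2, the gene of the p100 precursor of p52, was at 18.1, 19.5, 18.7, 23.2 and 25.5 CPM in Wild-Type 1 to 5 and from 14.6 to 31.6 CPM with a median of 18.1 in knockout libraries. Relb, the partner of p52, was at 6.51, 7.77, 7.85, 11.8 and 8.99 CPM in Wild-Type 1 to 5 and from 4.77 to 13.1 CPM with a median of 7.37 in knockout libraries. For both genes Knockout 1 was the highest library and Knockout 5 the lowest. Their log2 fold changes were -0.05 ± 0.18 and -0.03 ± 0.25 (SE), and -0.22 and -0.20 without Knockout 1.

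Nfkbia, whose product IkB-alpha holds NF-kB in the cytoplasm and whose transcription NF-kB itself drives, was at 84.4, 60.2, 63.4, 75.2 and 70.2 CPM in Wild-Type 1 to 5. Knockout libraries ran from 54.5 to 77.3 CPM with a median of 62.2 and overlapped the wild-type libraries. The log2 fold change was -0.16 ± 0.10 (SE), and -0.09 without Wild-Type 1. In all, 7 of the 10 genes had a log2 fold change within 0.2 of 0, where the median size over all genes was 0.13, so that such small values are common and not particular to these genes. Of the 10, 5 were above 0 and 5 below (48.3% and 51.7% of all genes), and the median was -0.01, the same to that precision as the median over all genes tested.

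The libraries differed in the levels of marker genes of other cell types. B cell markers were higher in Knockout 1 and in Wild-Type 2, 4 and 5. The 10 B cell markers summed to 1.06 to 18.3 CPM in the knockout group and, in the wild-type group, to 2.31 to 102 CPM. Of these 10, 5 were tested, and all 5 had a log2 fold change under 0 (51.7% of all genes), with a median of -2.92. All 5 were lower at an unadjusted p-value under 0.05 (6.08% of all genes), and edgeR called 0. Cd79a, a part of the B cell receptor, was at most 4.197 CPM with Cre and reached 19.9 CPM without it. Ms4a1, which encodes CD20, had no read in Knockout 2, 3, 4 and 6 and in Wild-Type 1. The 9 T cell markers summed to 1.81 to 12.5 CPM in the knockout group and, in the wild-type group, 2.31 to 50.1 CPM, and the T cell gene Cd3e was at most 1.75 CPM. Of these 9, 6 were tested, and all 6 were under 0, with a median of -1.57. At an unadjusted p-value under 0.05, 2 of the 6 were lower, beside the same shares of all genes, and edgeR called 0. Of the lymph node stroma list, Ccl21a was at 0 to 2.66 CPM in the knockout group and, in the wild-type group, 0.105 to 22.5 CPM. Its log2 fold change was -3.66 ± 1.29 (SE). Of this list 3 genes were tested and all 3 were under 0, with a median of -0.29 and Madcam1 at -0.08 ± 0.27 (SE). At an unadjusted p-value under 0.05 Ccl21a alone of the 3 was lower (6.08% of all genes), and edgeR called 0.

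The part of the lymphoid transcripts in the Traf1 difference was not tested beyond the values that follow. Knockout 1, the knockout library with the most B cell transcripts, had 6.37 CPM of Traf1, lower than all knockout libraries but Knockout 2. Wild-Type 3, which held 5.47 CPM of B cell markers in sum, had the highest Traf1 of all libraries in CPM. Wild-Type 1 had both the lowest sum of the wild-type libraries, 2.31 CPM, and the lowest Traf1 among them. With the B cell score as a covariate in edgeR the log2 fold change of Traf1 was -1.003 ± 0.22 (SE).

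In CPM, skeletal muscle transcripts were highest where Traf1 was lowest within each genotype. The 5 muscle markers summed to 2037 CPM in Knockout 1 and 159 in Knockout 2, and to 170 in Wild-Type 1 and 133 in Wild-Type 4, against 0.691 to 30.7 CPM in the other libraries. All 5 had a log2 fold change above 0 (48.3% of all genes), with a median of 2.30, and 0 had an unadjusted p-value under 0.05 (12.4% of all genes). The order of Traf1 was another one in TPM, where Wild-Type 4 had the highest Traf1 of all libraries, 19.1, and Knockout 3 with 7.43 lay under Knockout 2 with 8.83. In TPM too the genotypes did not meet, the knockout libraries ending at 9.98 and the wild-type libraries starting at 11.2. The TPM of Traf1 come from the same reads, 421 in Wild-Type 4, and depend on how many were assigned to its 216-base transcript. They are thus no second measure of the difference. In the 7 libraries with less muscle, Traf1 was at 18.8, 20.9 and 16.6 CPM in Wild-Type 2, 3 and 5, and at 9.18, 8.90, 9.14 and 9.65 CPM in Knockout 3 to 6. The edgeR log2 fold change in these 7 libraries was -1.01 ± 0.10 (SE), and with the muscle score as a covariate in all 11 it was -0.95 ± 0.11 (SE). Both fits were chosen after seeing the data, and the libraries left out are those lowest in Traf1 within each genotype, so that the smaller error in the 7 libraries is part of how they were picked and no support for the difference.

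**Figure D2:**
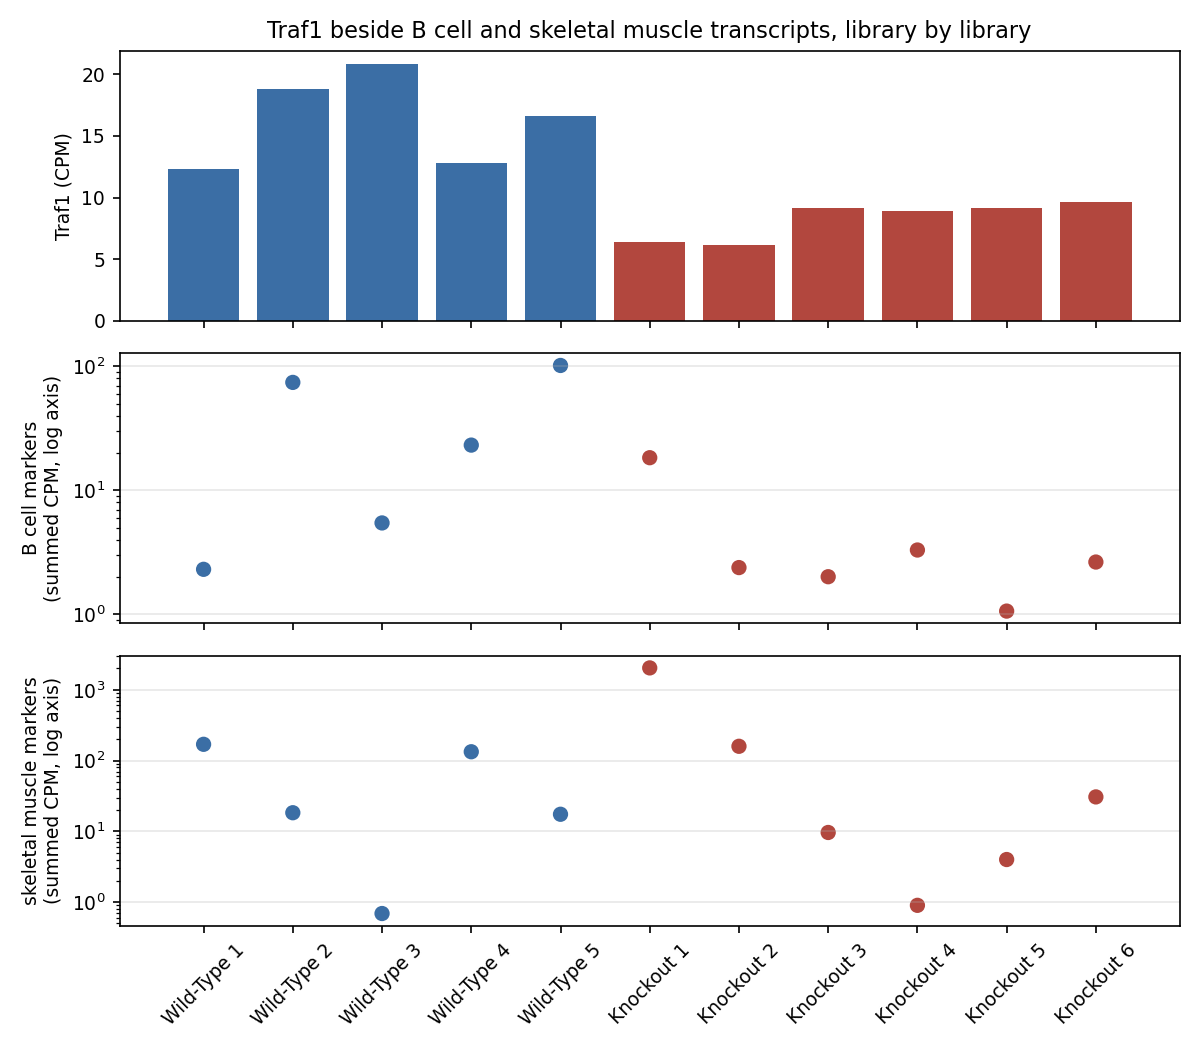
Traf1 CPM (top, bars from 0) with the summed CPM of the 10 B cell markers (middle) and the 5 skeletal muscle markers (bottom, both on log axes) in each of the 11 libraries, wild-type in blue and knockout in red. Traf1 is low in all knockout libraries, including Knockout 1 with 18.3 CPM of B cell markers, and is lowest within each genotype in the libraries highest in muscle markers.

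Adipocytes are the cells in which the deletion was made, and the part of their markers in the Traf1 difference was not tested. The 8 markers summed to 385 to 558 CPM in the knockout group and, in the wild-type group, 357 to 452 CPM. Of the 8, 7 had a log2 fold change above 0 (48.3% of all genes), the highest at 0.46, and the remaining 1 was at -0.81. EdgeR called 0 of the 8, and 4 had an unadjusted p-value under 0.05, against 12.4% of all genes. DESeq2 called 2 against 1.15% of all genes, Adipoq and the fatty acid binding protein gene Fabp4, which is named because it was called. Adipoq was at 47.7 CPM ± 5.82 (SD, n = 6) in the knockout group, against 36.1 CPM ± 5.66 (SD, n = 5) in the wild-type group (edgeR adjusted p = 0.263). The macrophage and dendritic cell markers summed to 50.2 to 78.9 CPM in the knockout group and, in the wild-type group, 57.2 to 89.6 CPM. Fibroblast markers had 5 of 5 log2 fold changes above 0 (48.3% of all genes), with a median of 0.36, and 2 of the 5 higher at an unadjusted p-value under 0.05 (6.31% of all genes) and 0 called by edgeR. They summed to 378 CPM in Knockout 1 and 524 in Knockout 2, the knockout libraries lowest in Traf1, to 221 to 311 CPM in the other knockout libraries, and to 164 to 373 CPM among the wild types. Myoepithelial markers also had 5 of 5 above 0, with a median of 0.21, 1 of the 5 higher at an unadjusted p-value under 0.05 and 0 called by edgeR, beside the same shares of all genes. The part of these lists in the Traf1 difference was not tested. Csn2, a milk protein gene of the epithelium, averaged 146357 CPM ± 19965 (SD, n = 6) in the knockout group, against 177046 CPM ± 25610 (SD, n = 5) in the wild-type group (edgeR adjusted p = 0.415). Of the 7 luminal epithelium markers, Csn2 included, 3 had a log2 fold change above 0 and 4 under 0 (48.3% and 51.7% of all genes), with a median of -0.14. At an unadjusted p-value under 0.05, 1 of the 7 was higher in knockout (6.31% of all genes) and 0 were lower, and edgeR called 0. The part of this list in the Traf1 difference was not tested either.

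Nfkb1, Nfkb2, Relb, Traf2, Traf3 and Traf5 had opposite signs in these fits, and Traf1, Traf4, Traf6 and Nfkbia did not. With the B cell score as a covariate the log2 fold changes of Nfkb2 and Relb were 0.25 ± 0.16 and 0.28 ± 0.27 (SE). In the 7 libraries low in muscle they were -0.31 ± 0.13 and -0.34 ± 0.17 (SE). Traf6 stayed above 0 in both, at 0.29 ± 0.17 and 0.66 ± 0.16 (SE). Traf5 was at 0.03 ± 0.29 with the covariate and at -1.08 ± 0.32 (SE) in the 7 libraries, of which Wild-Type 5 is one.

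**Figure D3:**
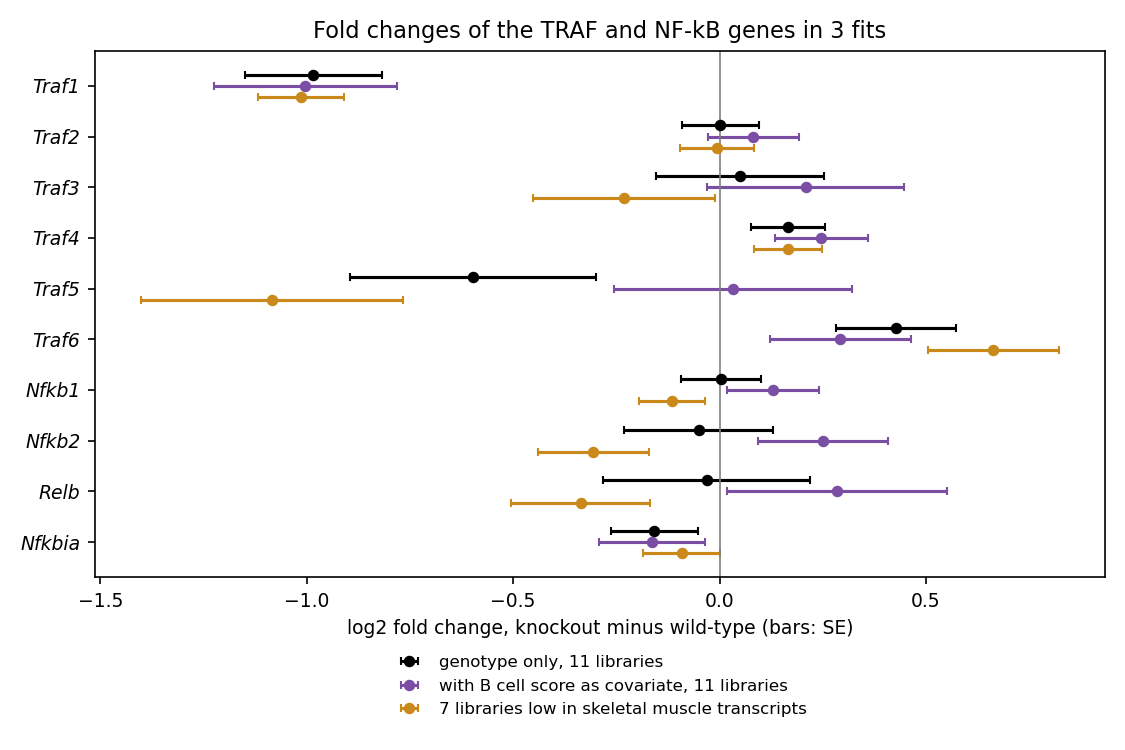
Log2 fold changes (knockout minus wild-type, bars for the SE) of the 10 genes in edgeR with genotype alone (black), with the B cell score as a covariate (purple) and in the 7 libraries low in skeletal muscle transcripts (ochre). Traf1 is at -0.98, -1.003 and -1.01, while Nfkb1, Nfkb2, Relb, Traf2, Traf3 and Traf5 are on different sides of 0 with the covariate and in the 7 libraries.

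Variation between animals of one genotype is independent of how the list was chosen, and it was tested for all 45 pairs of the 10 genes. Log2 CPM were centred on the mean of each genotype and correlated over the 11 libraries, with an exact two-sided test over all 86400 pairings within genotypes and Benjamini-Hochberg adjustment over the pairs. Of 45 pairs, 1 passed with Pearson's r and 1 with Spearman's rho, and it was Nfkb2 with Relb in both cases. Their r was 0.90 (exact p = 0.000417, adjusted p = 0.0188) and their rho 0.95 (exact p = 0.000139, adjusted p = 0.00625). Without Knockout 1 and Wild-Type 5, the libraries farthest from the median of Nfkb2, r was 0.98. The genes of the non-canonical dimer thus varied together from gland to gland.

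The remaining NF-kB pairs were positive but did not pass. Nfkb1 had r = 0.84 with Relb (rho = 0.79; exact p = 0.00346 and 0.0114, adjusted p = 0.0779 and 0.209) and r = 0.75 with Nfkb2 (rho = 0.76; exact p = 0.0120 and 0.0139, adjusted p = 0.157 and 0.209). Without Knockout 1 and Knockout 2, r was 0.63 and 0.61. Traf1 had 8 of its 9 correlations below 0. By Pearson's r the farthest from 0 was with Nfkbia, at -0.76 (rho = -0.59; exact p = 0.0146 and 0.0827, adjusted p = 0.157 and 0.461), and -0.81 without Knockout 2 and Wild-Type 1. By rho it was with Traf6, at -0.65 (r = -0.64; exact p = 0.0538 and 0.0508, adjusted p = 0.404 and 0.254). Without the same libraries r was farthest from 0 with Nfkb1, at -0.94, against -0.51 with all 11. All these pairs share the libraries' scaling and their muscle and lymphoid content.

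**Figure D4:**
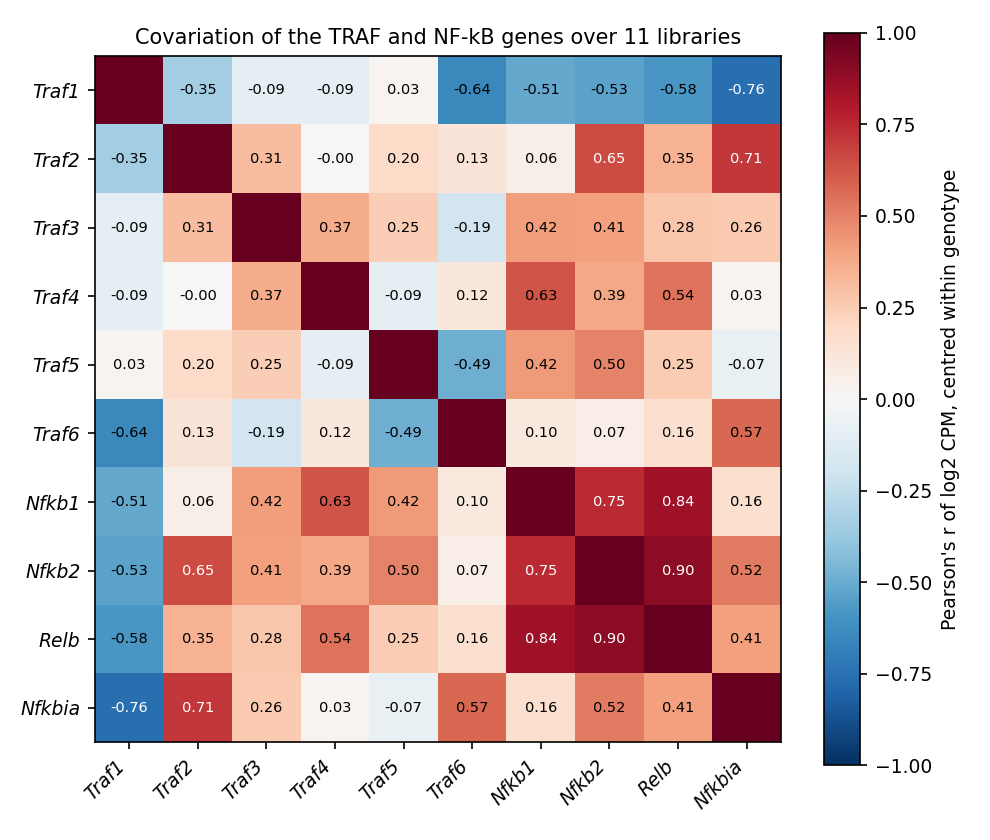
Pearson's r between log2 CPM of the 10 genes over 11 libraries, centred within each genotype, from -1 (blue) to 1 (red). Nfkb1, Nfkb2 and Relb form a block of values from 0.75 to 0.90, and the row of Traf1 is below 0 apart from Traf5.

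Among all genes tested, the 5 whose pattern over the 11 libraries, centred within genotype, was most like that of Traf1 were Slc39a11, Uqcr11, Zfp791, Gsta2 and Chek2, with Pearson's r of 0.92, 0.91, 0.91, 0.91 and 0.91. Slc39a11 encodes a zinc transporter, Uqcr11 a subunit of respiratory complex III, Zfp791 a zinc finger protein, Gsta2 a glutathione transferase and Chek2 a checkpoint kinase. Their log2 fold changes between genotypes were -0.17 ± 0.14, -0.12 ± 0.11, 0.07 ± 0.15, -0.32 ± 0.58 and -0.13 ± 0.07 (SE), and edgeR called 0 of the 5, with adjusted p-values from 0.480 to 0.888. In all 5 the groups overlapped. The correlations are those by which the 5 were picked from all genes tested, and are a description.

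The genes around the 10 in the pathway were taken from lists with 97 genes, of which 73 passed the filter on low counts. Of the 73, edgeR called 0 in either direction and 11 had an unadjusted p-value under 0.05, against 12.4% of all genes tested. Of the 11, 3 were higher and 8 lower in knockout, where the shares of all genes were 6.31% and 6.08%. DESeq2 called 0 of the 73. The log2 fold changes were above 0 for 36 and under 0 for 37, with a median of -0.00, against a median of -0.01 over all genes.

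**Figure D5:**
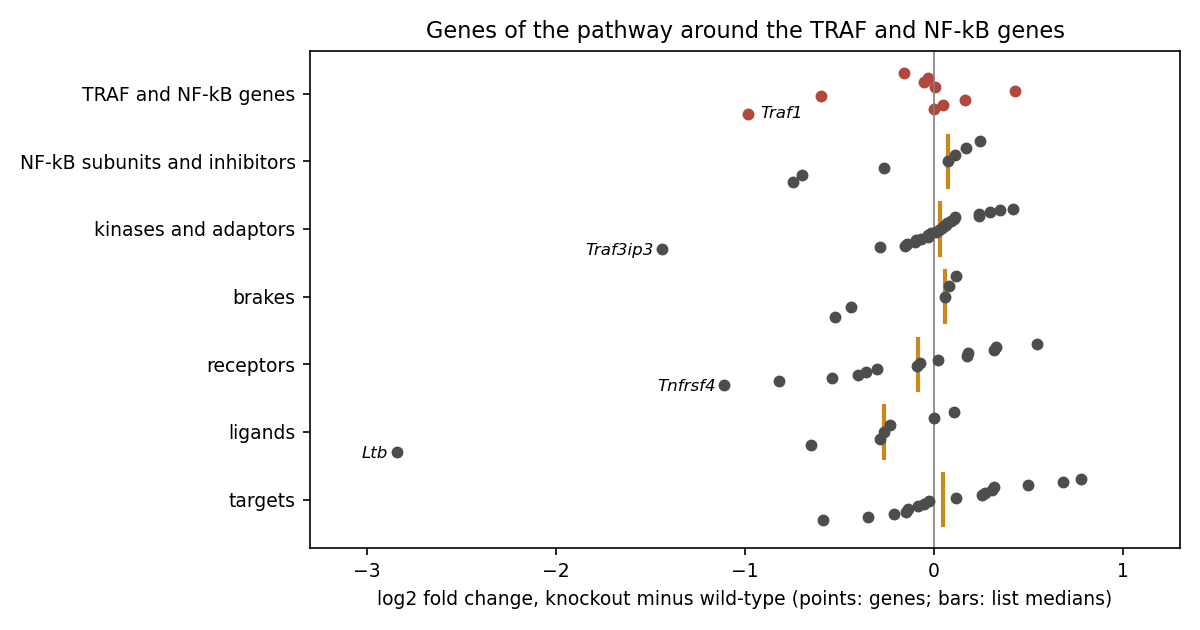
Log2 fold changes (knockout minus wild-type) of the 73 tested pathway genes by list, with list medians as ochre bars, and of the 10 TRAF and NF-kB genes in red at the top. Ltb at -2.84, Traf3ip3 at -1.44 and Tnfrsf4 at -1.11 lie farthest to the left, and the medians lie between -0.26 and 0.07.

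Receptors and ligands came first in the order of the pathway. Of 20 receptor genes 14 were tested, 3 of them with an unadjusted p-value under 0.05 (1 higher and 2 lower in knockout, against 6.31% and 6.08% of all genes), with a median log2 fold change of -0.08, which was 0.16 with the B cell score as a covariate, -0.39 with no filter on low counts, -0.20 in the 7 libraries low in muscle, and between -0.29 (without Wild-Type 1) and -0.03 (without Knockout 2) with a library left out. Tnfrsf11a, the gene of RANK, ran from 26.5 to 30.7 CPM with Cre and from 23.2 to 37.0 CPM without it (edgeR adjusted p = 0.784). Tnfrsf13b and Tnfrsf4, receptors of B and T cells, had the smallest p-values of the list, with log2 fold changes of -0.82 ± 0.33 and -1.11 ± 0.47 (SE; edgeR adjusted p = 0.358 and 0.374). Cd40, the B cell receptor that signals through several TRAFs, had 3 to 47 reads per library, with the most in Wild-Type 5, and was too low to be tested.

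Of 16 ligand genes 7 were tested, and 6 of these were under 0 (51.7% of all genes), 1 of the 7 being lower at an unadjusted p-value under 0.05 (6.08% of all genes), with a median of -0.26, which was -0.47 with no filter on low counts and -0.52 in the 7 libraries low in muscle. Ltb, the lymphotoxin-beta gene of lymphocytes, was at 1.19, 13.7, 1.13, 6.26 and 22.6 CPM in Wild-Type 1 to 5 and from 0.341 to 3.75 CPM with a median of 0.815 in knockout libraries. Its high libraries were those high in B cell markers, Knockout 1 included. On the log2 scale the difference was -2.84 ± 0.89 (SE), with an edgeR adjusted p of 0.294. Tnfsf13, the gene of APRIL, a survival factor for plasma cells, was at -0.23 ± 0.12 (SE; edgeR adjusted p = 0.468), and Tnfsf13os overlaps it on the opposite strand. Tnfsf11, the ligand of RANK, had 34 reads in all 11 libraries together, 16 of them in Knockout 1.

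All 24 kinases and adaptors were tested, with a median of 0.03, and 4 had an unadjusted p-value under 0.05, 2 higher and 2 lower, against 6.31% and 6.08% of all genes. Traf3ip3, whose product binds Traf3 and is found in lymphocytes, was at 1.121, 5.14, 1.38, 2.70 and 7.44 CPM in Wild-Type 1 to 5 and from 1.101 to 1.69 CPM in knockout libraries, high again where B cell markers were (log2 fold change -1.44 ± 0.43 SE; edgeR adjusted p = 0.274). Myd88, the adaptor between Toll-like receptors and Traf6, averaged 13.3 CPM ± 0.955 (SD, n = 6) in the knockout group, against 10.8 CPM ± 1.75 (SD, n = 5) in the wild-type group, which as a log2 fold change is 0.30 ± 0.10 (SE; edgeR adjusted p = 0.313). For Myd88 Wild-Type 4, at 13.3 CPM, was the wild-type library within the knockout range. Genes on the opposite strand overlap Myd88 (Acaa1a) and Traf3ip3 (A130010J15Rik and Gm15872), and also Tnip1, Tnfrsf13b and Vcam1 described here.

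The other subunits and inhibitors numbered 7, all tested, with a median of 0.07. At an unadjusted p-value under 0.05, 3 of the 7 were lower in knockout, against 6.08% of all genes, and edgeR called 0 after adjustment. These were the inhibitor genes Nfkbid, Nfkbie and Nfkbiz, the last at -0.27 ± 0.12 (log2, SE) and named because it was counted. Rela, which encodes the main activating subunit, was at 23.7 CPM ± 3.60 (SD, n = 6) in the knockout group, against 21.9 CPM ± 3.38 (SD, n = 5) in the wild-type group. Rel, the lymphoid subunit, was at 1.100 CPM ± 0.192 and 0.924 CPM ± 0.383. The inhibitor genes Nfkbid and Nfkbie were at -0.70 ± 0.26 and -0.75 ± 0.31 (log2, SE; edgeR adjusted p = 0.341 and 0.369), highest in Wild-Type 5. All 5 brakes on the pathway were tested, with a median of 0.06, and 0 had an unadjusted p-value under 0.05. Tnfaip3, the gene of the deubiquitinase A20, was at -0.52 ± 0.27 and its partner Tnip1 at -0.44 ± 0.24 (log2, SE; edgeR adjusted p = 0.446 and 0.481).

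Of 25 target genes 16 were tested, 8 above and 8 under 0, with a median of 0.05, which was 0.30 with the B cell score as a covariate and between -0.02 (without Knockout 2) and 0.16 (without Knockout 4) with a library left out. Of the 16 targets 0 had an unadjusted p-value under 0.05, against 12.4% of all genes. Birc3, whose product is recruited to receptors by Traf1 and Traf2 and which NF-kB induces, was at 21.5 CPM ± 5.17 (SD, n = 6) in the knockout group, against 25.0 CPM ± 3.51 (SD, n = 5) in the wild-type group, which as a log2 fold change is -0.21 ± 0.15 (SE; edgeR adjusted p = 0.593). Vcam1, an adhesion molecule, was at 0.32 ± 0.19 (log2, SE; edgeR adjusted p = 0.511). Bcl2a1b, a survival gene, was at 0.68 ± 0.37 (log2, SE; edgeR adjusted p = 0.480), and its reads are uncertain because near-identical copies of the gene exist. Whether the targets as a list differ from Traf1 was not tested.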

How the data were processed

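Each library had a table of transcripts with its listed and effective length in bases, TPM (a deposited abundance scaled for length) and estimated counts, per the file headers. The submitters' processing notes name Salmon 1.3.0, DESeq2 1.28.1 and GRCm38.p6, and the index and bias options are not given in the sources used here. Of 56929 transcripts with a coding sequence in GENCODE M21, 94.3% had a listed length 0 to 3 bases above it, so that most untranslated regions were not covered. The authors also deposited gene values normalized with DESeq2, per the file's name, which served as a signal in an alternative.

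Estimated counts were summed per gene through the M21 annotation, rounded, filtered with filterByExpr, scaled with TMM and tested in edgeR 4.0.16 (quasi-likelihood, robust, genotype the only term, adjusted p-value under 0.05 over 12716 genes). The 752 transcripts absent from the annotation, with at most 0.265% of a library's reads, were left out. The fit was tested on simulated data. A marker score is the mean of centred log2 CPM (prior count 2) over a list's tested genes. Ccl19 was not used, since more than 1 gene ID carries the name. Alternatives were DESeq2 1.42.0, other scaling, no filter, transcript length offsets, covariates, a replicate block, limma 3.58.1 on the deposited signal (log2 with a pseudocount of 1), and each library left out. Genes named beside the 10 are the 2 smallest p-values of each pathway list, Birc3, Cd40, Traf3ip3, Tnfrsf11a, Tnfsf11 and 7 cell type markers by name (1 is not reported here), and the 5 most like Traf1. Rela, Rel and Tsc1 were added after their values were seen. The genes and lists were chosen with earlier results of these data known.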

Additional observations from a re-analysis of the deposited data

Results flagged for a closer look

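A search for a lone distant library covered 42 groups of values, namely the CPM of the 10 genes and the scores of 11 marker lists in each genotype. 1 was found, where chance at 1 in 20 gives 2.1. The B cell marker score of Knockout 1 was 1.40 on the log2 scale, against -2.36 to -1.17 in the other knockout libraries. None of the 10 TRAF and NF-kB genes had a library this far from the rest of its genotype.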

How the results depend on the processing

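The log2 fold change of Traf1 was under 0 in all 20 alternatives, from -1.07 to -0.88 with a library left out and from -1.12 (limma on the deposited values) to -0.95 otherwise. Of the 10 genes, 0 were called with genotype alone, and 1, Traf1, was called in 5 of the 20: by DESeq2 (1), with the skeletal muscle score as a covariate (1), in the 7 libraries low in muscle (1), and without Wild-Type 1 or Wild-Type 4. With a library left out the count of the 10 called was thus 0 to 1. The count over all genes, 7, was 146 in DESeq2, 25 with the B cell score as a covariate, 23 in the 7 libraries low in muscle and 0 to 28 with a library left out (0 without Knockout 3 or Knockout 6, 2 without Knockout 1 or Wild-Type 3, 13 without Wild-Type 1 or Wild-Type 5, 14 without Wild-Type 4, 28 without Knockout 2), and the cause was not tested. Pathway genes called were 0 in all 20. The median of all pathway genes lay between -0.08 and 0.09. List medians moved more, receptors to -0.39 with no filter and 0.16 with the B cell score, targets to 0.30 with the B cell score, and ligands to -0.52 in the 7 libraries. The median of targets changed sign in 5 of 20 alternatives, of brakes (-0.11 to 0.11) in 3, and of subunits and inhibitors (-0.05 to 0.12) in 2. With a library left out, Nfkbia ran from -0.22 to -0.09, Traf4 from 0.10 to 0.25, Traf6 from 0.32 to 0.54, Nfkb2 from -0.22 to 0.03, Relb from -0.20 to 0.12 and Traf3 from -0.11 to 0.15. Signs near 0 were not stable, as Traf2 changed sign in 9 of 20 alternatives, Nfkb1 in 7, Relb and Traf3 in 5 each, Nfkb2 in 3 and Traf5 in 1. With the replicate number as a block, edgeR called 0 genes and Traf1 was at -1.02. Deviations of same-numbered libraries correlated from -0.22 to 0.19 across genes, and in 1 of 5 numbers a library was most like its own number. A pairing of the animals by number was thus not seen, and so few correlations cannot exclude it. The muscle covariate and the 7-library fit were chosen after seeing the data, and the 7 leave out the libraries lowest in Traf1 CPM within each genotype. Depth limits Traf5, with 36 reads in its lowest library, and Tnfsf11, with 34 reads in all.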
